A study of Rattus norvegicus with 56 samples.

Results

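Rats that had been injected repeatedly with saline (NaCl-III) were compared with rats that were left untouched (CNT), over every transcript cluster of a rat gene array. The members were chosen by the group in the labels: 3 NaCl-III arrays (numbers 19, 20 and 48) and 5 CNT arrays (1, 2, 3, 4 and 41), 8 of 56 arrays in all, 1 array per sample. NaCl-III rats received NaCl under the skin for 10 days and on the next day a single i.p. injection of 100 µl saline, with decapitation 120 min later. CNT rats went through no procedure, so the s.c. injections, the i.p. injection and the handling that came with them cannot be told apart here. Both groups were male Wistar rats aged 3 months, with no surgery, drug or LPS, and the tissue was the medial hypothalamus around the paraventricular nucleus. The remaining arrays of the series hold rats with vagotomy (VAGX), a sham operation (SHAM), or celecoxib (CEL), SC-560 (SC560) or indometacin (INDOM), followed by saline (groups ending in III) or by 10 µg LPS (groups ending in I), and NaCl rats given LPS. They enter only the estimate of the spread and a few comparisons named below.

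An injection, even of saline, is a stressor for a rat. The paraventricular nucleus answers a stressor with Crh and Avp, the peptides that drive pituitary ACTH and, through it, adrenal corticosterone, and the steroid in turn raises glucocorticoid-responsive genes such as Fkbp5 and Per1 in the brain. Neurons that fire strongly switch on immediate early genes such as Fos and Egr1 for a short time. The pars tuberalis is the part of the pituitary that wraps the median eminence at the floor of the hypothalamus. Its thyrotrophs express Tshb and Cga, the subunits of thyrotropin, and are known for reading day length through melatonin.

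Levels are given as the log2 of the deposited intensity of a transcript cluster, the probes of 1 transcribed region, and a difference is always NaCl-III minus CNT on this scale. The median level was between 4.08 and 4.22 on each of the 8 arrays, and pairs of them correlated at Pearson's r between 0.950 and 0.973 over the clusters. Genes of the hypothalamus were measured at high intensity in both groups, with Oxt at 9.95 ± 0.18 in NaCl-III and 9.97 ± 0.71 in CNT (SD, n = 3 and 5), and Avp at 9.18 ± 0.45 in NaCl-III and 9.73 ± 0.59 in CNT. NaCl-III array 48 and CNT array 41 belong to a later set of array numbers (41 to 56), in which the sequence of groups starts again, and the label of NaCl-III array 20 carries a second run number.

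CNT array 4 was known from earlier results of these data to be high in inflammatory genes. The values in this paragraph describe that array and are no new evidence on it. It held 36 genes at more than 1 log2 unit above all other arrays of both groups, while each of the other arrays held between 0 and 7. These genes are led by chemokines and interferon-induced genes. Cxcl10, a chemokine that draws in T cells, was at 4.21, 3.99 and 4.36 in NaCl-III and at 4.31, 4.20, 4.07 and 3.96 on CNT arrays 1, 2, 3 and 41, but at 8.94 on CNT array 4. Cxcl11, of the same family, was between 2.30 and 2.78 in NaCl-III and between 2.23 and 2.60 on the other CNT arrays, against 8.26 on CNT array 4. Rsad2, an antiviral enzyme, reached 7.08 on this array, against at most 3.77 in NaCl-III and 4.00 on the other CNT arrays. CNT array 4 lay above 18 of the 26 arrays of LPS-injected rats for Cxcl10 and above 28 of the other 29 arrays without LPS. It was decided in advance, from the earlier results, to leave this array out as an alternative. Results are given with it and, for most lists and some genes, also without it. A difference from CNT with no such remark includes CNT array 4.

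**Figure D1:**
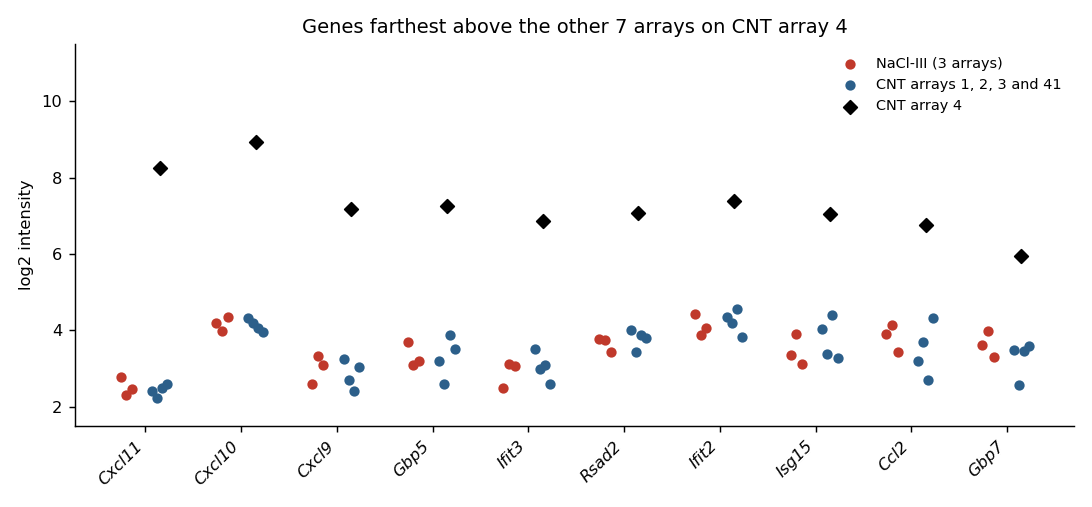
Level (log2 intensity) of the 10 genes for which CNT array 4 lay farthest above the other arrays, 1 point per array, with NaCl-III left of CNT for each gene. CNT array 4 (black diamonds) stands alone, and the NaCl-III arrays overlap the other 4 CNT arrays, for example for Cxcl10.

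No transcript cluster passed the test between NaCl-III and CNT. limma, fitted to the 13 group means over all 56 arrays, called 0 of 36685 clusters (0% called) at an adjusted p of 0.05, and the methods' analysis of variance without moderation also called 0. By limma 1101 clusters (3.00%) had an unadjusted p under 0.05, of which 512 (1.40%) were higher and 589 (1.61%) lower in NaCl-III, and the analysis of variance gave 1090. Without CNT array 4 limma again called 0 (0%), with 1032 clusters (2.81%) at an unadjusted p under 0.05. All differences below are therefore values that did not pass the test, and each named gene has an adjusted p of 1.

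For most genes the arrays bounded the difference in measured intensity. Over the 14557 genes with a cluster of their own the median difference was 0.01 and the median absolute difference 0.12, and the 95% interval of a gene reached a median of 0.43 to either side. For 13660 genes (93.8%) this interval lay wholly within a difference of 1. This share includes dim genes, since only 9055 of the 14557 had a mean above the median level of the clusters. The share among these alone was not taken. Only 13 genes differed by more than 1 in the estimate, 6 higher and 7 lower. Of the 6 higher, all but Slc6a3 and LOC100362384 had a mean below the median level of the clusters (4.08) in both groups. The largest 3 of the 7 lower were Tshb, Cga and Nmu, described next, and Cxcl11, with a difference of -1.08, came to 0.09 without CNT array 4.

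Tshb, the β subunit of thyrotropin, had the largest difference of all genes. It was at 5.07, 2.85 and 5.92 in NaCl-III (arrays 19, 20 and 48), against 7.55, 8.37, 6.36, 8.61 and 6.20 in CNT (arrays 1, 2, 3, 4 and 41). The groups did not overlap, but the gap between the highest NaCl-III array and the lowest CNT array was small, and NaCl-III array 20 was far below its group. The means were 4.62 ± 1.58 in NaCl-III and 7.42 ± 1.11 in CNT (SD, n = 3 and 5), a difference of -2.80 ± 0.94 (SE; 95% interval -4.71 to -0.90) that did not pass limma's test (adjusted p = 1). The linear level in CNT was 6.98 times that in NaCl-III.

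Cga and Nmu were also lowest on NaCl-III array 20. Cga, the α subunit that thyrotropin shares with the gonadotropins, was at 7.88, 5.83 and 7.88 in NaCl-III, against 8.88, 9.44, 8.49, 9.30 and 8.77 in CNT, a difference of -1.78 ± 0.84 (SE). Nmu, the peptide neuromedin U, which in rats is made in the pars tuberalis, was at 4.91, 3.05 and 4.77 in NaCl-III, against 6.11, 6.45, 5.74, 6.09 and 5.24 in CNT, a difference of -1.69 ± 0.64 (SE). For both genes the groups did not overlap, as for 2.64% of all genes. Neither passed limma's test (adjusted p = 1). The differences without CNT array 4 were -2.50 for Tshb, -1.70 for Cga and -1.65 for Nmu. Without NaCl-III array 20 they were -1.92 for Tshb, -1.10 for Cga and -1.09 for Nmu.

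The first 250 bases before and 50 bases after the start of these 3 genes are shown because the levels of these genes varied together over the arrays. They are RefSeq sequences of build GRCr8, 5′ to 3′ on the strand of the gene: Tshb at chr2:192918005-192918304 (minus strand), Cga at chr5:54283090-54283389 (plus strand) and Nmu at chr14:32198693-32198992 (plus strand). Capitals mark matches, on either strand, to a TATA box (TATAAA, in 14.2% of 33469 promoters of this length), a cyclic AMP response element with 1 open base (TGANGTCA, in 10.2%), an E-box (CACGTG, in 6.42%) or a D-box with 1 open base (TTANGTAA, in 2.24%), and no matches overlapped.
Tshb: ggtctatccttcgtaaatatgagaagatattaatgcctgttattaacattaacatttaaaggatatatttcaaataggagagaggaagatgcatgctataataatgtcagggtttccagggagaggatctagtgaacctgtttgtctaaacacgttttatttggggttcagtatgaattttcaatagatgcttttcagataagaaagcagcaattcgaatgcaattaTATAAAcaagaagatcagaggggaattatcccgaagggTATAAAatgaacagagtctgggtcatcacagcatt
Cga: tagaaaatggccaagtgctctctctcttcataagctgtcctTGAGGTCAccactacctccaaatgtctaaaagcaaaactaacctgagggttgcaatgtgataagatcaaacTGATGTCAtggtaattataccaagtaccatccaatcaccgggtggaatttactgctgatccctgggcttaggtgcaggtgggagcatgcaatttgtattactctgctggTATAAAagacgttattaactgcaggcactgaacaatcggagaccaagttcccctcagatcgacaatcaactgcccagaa
Nmu: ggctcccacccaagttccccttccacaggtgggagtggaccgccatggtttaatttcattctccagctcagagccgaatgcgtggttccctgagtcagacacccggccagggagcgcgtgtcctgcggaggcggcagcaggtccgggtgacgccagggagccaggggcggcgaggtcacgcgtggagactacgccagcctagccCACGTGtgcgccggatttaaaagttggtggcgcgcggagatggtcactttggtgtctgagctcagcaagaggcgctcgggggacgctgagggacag
Tshb held 2 matches to TATAAA, Cga 1 match to TATAAA and 2 to TGANGTCA, and Nmu 1 match to CACGTG. TTANGTAA matched in none of these windows, and no motif was shared by all 3. A match is a string of letters and not a measured binding site.

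The genes most like Tshb over the 56 arrays, among genes above the median level, were Cga (Pearson's r = 0.925) and Nmu (0.906). They were followed by Dct, an enzyme of melanin synthesis (0.793), Crabp1, a retinoic acid binding protein (0.645), and Ucp2, a mitochondrial carrier (0.608). Pomc, described below, came next (0.589). Within groups r was 0.917 for Cga, 0.867 for Nmu and 0.795 for Pomc. It was 0.756 for Dct, 0.566 for Crabp1 and 0.458 for Ucp2 within groups. These values are a description over arrays that share groups and array sets. Crabp1 was at 5.89, 5.89 and 5.78 in NaCl-III, against 6.54, 7.03, 6.32, 6.32 and 6.57 in CNT. Its groups did not overlap either, but not overlapping was part of how Crabp1 was chosen to be named. Of the 9 measured genes of the list of pituitary and pars tuberalis markers 3 were higher and 6 lower, with a median of -0.07 (-0.21 without CNT array 4) beside 0.01 over all genes. The linear intensities of these 9 genes summed to between 149 and 390 in NaCl-III and between 524 and 1110 in CNT. Such a sum is weighted to its brightest members, here Cga and Tshb. The gap between the sums therefore largely restates these genes and is no further result for the list. All members but Tshb and Cga, 7 genes that include Gh1 and Prl of the anterior lobe, were at or below the median level of the clusters. In such bulk samples fewer cells of a type and less RNA per cell cannot be told apart, and neither can a larger or smaller share of pars tuberalis in the dissected piece, whose part in the result was not tested.

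The same 3 genes varied in the other groups without LPS. CEL-III rats, which had celecoxib s.c. for 10 days and the same i.p. saline, had Tshb between 3.44 and 5.95, close to the range of NaCl-III. SC560-III (7.34 to 8.79) and INDOM-III rats (7.18 to 8.20), with the same schedule of injections and another drug, had Tshb near the higher CNT arrays. SHAM-III rats, which received only the i.p. saline after surgery, were between 5.35 and 7.95. Against these, limma gave a NaCl-III minus SHAM-III difference of -2.44 ± 0.99 (SE) for Tshb, which did not pass (adjusted p = 1). NaCl-I rats, with the same s.c. saline followed by LPS, ranged from 3.70 to 8.04. Within the later array set the difference was smaller: NaCl-III array 48 minus CNT array 41 was -0.28 for Tshb, -0.90 for Cga and -0.47 for Nmu, against -3.76, -2.17 and -2.12 within arrays 1 to 40. With the array set as a block the Tshb difference was -2.78.

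**Figure D2:**
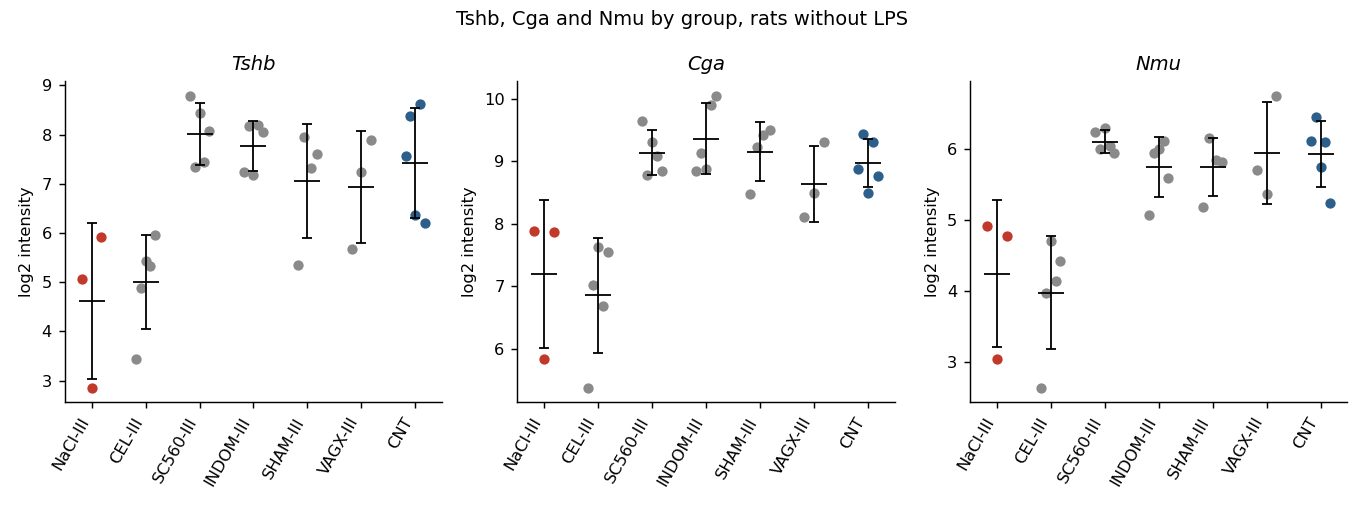
Level (log2 intensity) of Tshb, Cga and Nmu in the 7 groups without LPS, 1 point per array, with the mean and SD of each group as bars. NaCl-III (left) and CEL-III lie low, and the other groups overlap CNT (right), for example Tshb at 4.62 ± 1.58 in NaCl-III and 7.42 ± 1.11 in CNT.

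Genes of acute neuronal activation did not differ detectably between the groups. The tissue was taken 120 min after the i.p. injection, and earlier times were not measured, so a short rise before then could not be seen. Of 25 immediate early genes measured, 11 were higher and 14 lower in NaCl-III, 0 were called and 0 had groups that did not overlap (2.64% of all genes), and their median difference was -0.05. Without CNT array 4 the median was 0.02, and 2 of the 25 had groups that did not overlap, beside 4.51% of all genes. Fos, the classical marker of neuronal activation, was at 3.96, 4.36 and 4.88 in NaCl-III, against 5.41, 4.86, 3.79, 4.99 and 3.96 in CNT, with a difference of -0.20 (95% interval -0.94 to 0.54). Its arrays overlapped fully. Egr1, a transcription factor of the same kind, had a difference of -0.19 (95% interval -0.90 to 0.51). Nr4a2, an orphan nuclear receptor, was highest of the list at 0.38 ± 0.27 (SE), and Gadd45g, a stress-inducible regulator of growth, lowest at -0.54 ± 0.36, or -0.35 without CNT array 4.

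Most glucocorticoid-responsive genes had lower values in NaCl-III, and none passed the test. Of 17 measured, 14 were lower in NaCl-III (48.0% of all genes were lower by any amount), with a median of -0.30. Without CNT array 4 the numbers were 12 lower (45.7% of all genes) and a median of -0.13. Fkbp5, a chaperone that dampens the glucocorticoid receptor and is itself raised by it, was at 5.52, 5.84 and 5.67 in NaCl-III, against 5.87, 6.04, 5.93, 6.04 and 6.00 in CNT, a difference of -0.30 (95% interval -0.95 to 0.36). All NaCl-III arrays were below all CNT arrays, with a narrow gap. Fkbp5 was the only 1 of the 17 whose groups did not overlap, beside 2.64% of all genes. Per1, a clock gene that glucocorticoids raise, had a difference of -0.23 ± 0.26 (SE), or -0.13 without CNT array 4. Map3k6, a stress kinase, had -0.39 ± 0.27, or -0.47 without it. Lcn2, an iron-binding protein of inflammation, had -0.67 with CNT array 4 and -0.24 without it, and Nfkbia, the inhibitor of NF-κB, -0.45 and -0.15. Sgk1 and Tsc22d3, further glucocorticoid targets, were not analysed here.

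The peptides and receptors of the stress axis showed no detectable difference. Crh was at 3.69, 3.82 and 3.58 in NaCl-III, against 3.70, 4.37, 3.30, 4.21 and 3.87 in CNT, below the median level of the clusters on most arrays, with a difference of -0.19 (95% interval -0.81 to 0.43), or between -0.34 and -0.07 when single CNT arrays were left out. Avp, which adds to the action of Crh on the pituitary, was at 8.65, 9.44 and 9.44 in NaCl-III, against 10.03, 10.36, 8.77, 9.70 and 9.79 in CNT, a difference of -0.56 (95% interval -1.67 to 0.56). The interval of Avp includes differences of either sign, and without NaCl-III array 19 the difference was -0.29. Nr3c1, the glucocorticoid receptor, was at 7.04 ± 0.08 in NaCl-III and 7.03 ± 0.21 in CNT (SD), a difference of 0.02 (95% interval -0.33 to 0.37). Of the 12 measured genes of the axis 6 were higher and 6 lower, with a median of -0.09 (-0.07 without CNT array 4). Ucn3, a relative of Crh, had -0.35 ± 0.23 (SE), or -0.255 without CNT array 4. Among 11 clock genes 7 were lower, beside 48.0% of all genes, with a median of -0.09 (6 lower and -0.03 without CNT array 4). Per2 had -0.32 ± 0.23, or -0.22 without CNT array 4. Against SHAM-III, Crh in NaCl-III had a difference of -0.79 ± 0.32 (SE), and it too did not pass limma's test (adjusted p = 1).

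**Figure D3:**
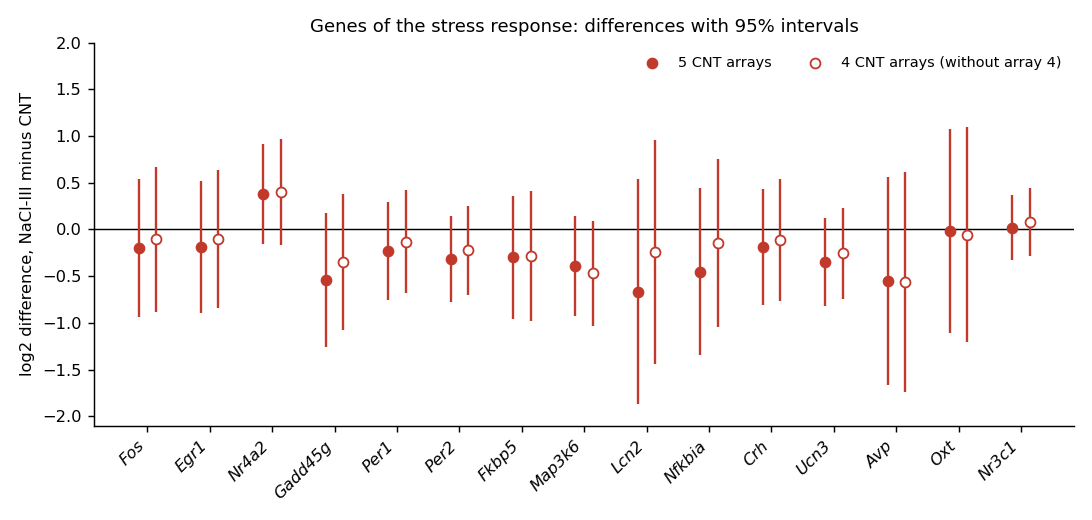
Differences (log2, NaCl-III minus CNT) of genes of the stress response with their 95% intervals from limma, with 5 CNT arrays (filled) and without array 4 (open). All intervals include 0, for example -0.94 to 0.54 for Fos, and the open points lie close to the filled ones except for genes high on array 4 such as Lcn2.

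Neuropeptide genes of the hypothalamus mostly had lower values in NaCl-III, by small amounts and without passing the test. Of 21 measured, 17 were lower (18 without CNT array 4), against 48.0% of all genes lower by any amount, and the median was -0.23 (-0.15 without CNT array 4). Only Nmu had groups that did not overlap, beside 2.64% of all genes, and Nmu was also picked by the rule for non-overlapping genes given below. An unadjusted p under 0.05 was found for 3 of the 21, beside 2.62% of all genes. Gnrh1, the hormone that governs the gonadotropins, was at 4.59, 3.17 and 3.96 in NaCl-III, against 5.01, 5.12, 4.35, 4.21 and 4.67 in CNT, a difference of -0.77 ± 0.33 (SE). NaCl-III array 20 was the lowest of the 8, NaCl-III array 19 lay among the CNT arrays, and the difference without array 20 was -0.39. Tac3, which encodes neurokinin B and acts on the Gnrh1 neurons, had a difference of -0.37 ± 0.18, or -0.19 without NaCl-III array 48.

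Genes of the arcuate nucleus, which lies above the pars tuberalis and holds neurons that set food intake, also mostly had lower values. Several of them, such as Agrp, Pomc and Tac3, are also on the neuropeptide list above, so the lists are not separate results. Agrp, a peptide that raises feeding, was at 5.04, 4.30 and 4.13 in NaCl-III, against 5.30, 5.17, 5.07, 5.15 and 4.92 in CNT, a difference of -0.63 ± 0.41 (SE). Pomc, the precursor of the peptide that lowers feeding and of ACTH, was at 6.74, 5.77 and 6.02 in NaCl-III, against 6.95, 6.80, 6.34, 6.62 and 6.74 in CNT, a difference of -0.51 ± 0.43. NaCl-III array 19 overlapped CNT for both genes, and without array 20 the difference of Pomc was -0.31. The level of Pomc varied with that of Tshb within groups (Pearson's r = 0.795). Of 13 arcuate feeding genes 4 were higher and 9 lower, with a median of -0.29 (-0.27 without CNT array 4). In the 11 markers of the hypothalamus 9 were lower with a median of -0.13 (-0.09 without it). Over all genes 48.0% were lower by any amount. Trh, the hypothalamic hormone that drives thyrotropin, had a difference of -0.39 ± 0.45, or -0.24 without NaCl-III array 48.

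The values of inflammatory genes differed widely with and without CNT array 4. Of 19 interferon response genes 17 were lower in NaCl-III with a median of -0.61, and without CNT array 4 the numbers were 12 lower and a median of -0.11. Rsad2 had a difference of -0.78 with array 4 and -0.12 without it, and Isg15, a ubiquitin-like protein of the antiviral response, -0.97 and -0.32. Of 24 acute inflammation genes 18 were lower with a median of -0.11, and 11 with a median of 0.01 without CNT array 4. Over all genes 48.0% were lower by any amount, and 45.7% without CNT array 4. Ccl2, a chemokine for monocytes, had -0.29 with array 4 and 0.36 without it. Il1b, the cytokine interleukin-1β, was at 3.08 ± 0.37 in NaCl-III and 3.16 ± 0.63 in CNT (SD), with a difference of -0.09 ± 0.38 (SE). Both levels were below the median of the clusters. The microglia markers, 12 in number, had a median of 0.03 (0.02 without CNT array 4).

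Enzymes and receptors of the prostaglandin pathway went both ways. Ptgs2, the inducible cyclooxygenase, was at 4.31, 5.03 and 4.10 in NaCl-III, against 5.13, 4.93, 4.31, 6.49 and 4.38 in CNT, and its difference was -0.57 with CNT array 4 and -0.21 without it. Pla2g4a, which frees the arachidonic acid the cyclooxygenases use, had -0.55 ± 0.23 (SE; -0.46 without CNT array 4, -0.31 without NaCl-III array 48), and Ptgir, the prostacyclin receptor, 0.58 ± 0.31. Of the 17 genes measured 9 were higher and 8 lower, with a median of 0.04 (-0.05 without CNT array 4).

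Most genes of cells that line the third ventricle had lower values in NaCl-III, without passing the test. Of 13 markers of motile cilia, the beating hairs of ependymal cells, 12 were lower (10 without CNT array 4), beside 48.0% of all genes, with a median of -0.16 (-0.12 without it), and 3 had an unadjusted p under 0.05, beside 2.62% of all genes. Lrrc23, a part of the ciliary radial spoke, was at 5.04, 5.52 and 5.07 in NaCl-III, against 5.77, 5.77, 5.76, 6.05 and 5.61 in CNT, a difference of -0.58 ± 0.21 (SE). Lrrc23 was the only 1 of the 13 whose groups did not overlap, beside 2.64% of all genes. Cfap44 and Drc1, also ciliary proteins, had -0.54 ± 0.23 (-0.31 within arrays 1 to 40) and -0.44 ± 0.20 (-0.29 without NaCl-III array 48). Dnaaf11, which helps to assemble the ciliary dynein motors and is not on the list, was at 4.18, 4.50 and 4.46 in NaCl-III, against 4.87, 4.83, 4.65, 5.33 and 5.02 in CNT. It was named by the rule for non-overlapping genes given below, so its separation adds nothing to the list.

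The comparison with SHAM-III, which does not use the CNT arrays, gave a larger value for the same cilia genes. All 13 were lower in NaCl-III than in SHAM-III (57.8% of all genes were), with a median of -0.51, and Lrrc23 had a difference of -0.90 ± 0.22 (SE; adjusted p = 0.954 by limma). Both comparisons share the 3 NaCl-III arrays. In the same comparison all 12 meninges markers were higher in NaCl-III, with a median of 0.52, all 12 microglia markers were lower, with a median of -0.27, and all 11 hypothalamus markers were lower, also with a median of -0.27. Their part in the result was not tested. The groups are unbalanced over the array sets, since only array 48 of NaCl-III, but arrays 43, 44 and 45 of SHAM-III, belong to the later one. With the array set as a block 12 of 13 cilia genes were lower with a median of -0.49, and the medians were 0.45 for meninges, -0.22 for microglia and -0.40 for hypothalamus markers. Within arrays 1 to 40, where SHAM-III has 1 array, the medians were -0.36 for cilia, 0.34 for meninges, 0.01 for microglia and -0.13 for hypothalamus markers, and within the later set -0.68, 0.12, -0.33 and -0.48. Of 10 tanycyte markers, genes of the specialised cells of the ventricle floor, 8 were lower than in CNT, beside 48.0% of all genes. Their median difference from CNT was -0.18 (-0.15 without CNT array 4). Col23a1, a transmembrane collagen, had -0.45 ± 0.22 and Scn7a, a sodium-sensing channel, -0.64 ± 0.39. The median score of the cilia list on each array, after each gene was centred on its mean over the 56 arrays, lay between -0.21 and -0.16 in NaCl-III and between -0.12 and 0.38 in CNT. The 0.38 was CNT array 4, and the other CNT arrays reached at most 0.10. Of the 34 lists this was the only list whose scores did not overlap between the groups, beside 2.64% of all genes. For the tanycyte list the scores overlapped, at -0.24 to -0.12 in NaCl-III and -0.16 to 0.14 in CNT. Those of the glucocorticoid list also overlapped, at -0.58 to -0.48 in NaCl-III and -0.73 to 0.15 in CNT.

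Most of the respiratory chain genes measured had slightly higher values in NaCl-III, without passing the test. Of 23 genes 21 were higher (20 without CNT array 4) and 2 lower, beside 48.0% of all genes lower, with a median of 0.07 (0.09 without it). The median scores of the list overlapped, at 0.01 to 0.12 in NaCl-III and -0.15 to 0.09 in CNT. Against SHAM-III 13 were higher and 10 lower, with a median of 0.02. With the array set as a block 8 were higher and 15 lower than in SHAM-III, with a median of -0.04. Ndufa4, a subunit of the respiratory chain, was at 10.64, 10.82 and 10.61 in NaCl-III, against 10.34, 10.34, 10.53, 10.53 and 10.40 in CNT, a difference of 0.26 ± 0.14 (SE). Ndufa4 was the only 1 of the 23 whose groups did not overlap, beside 2.64% of all genes. Sdha, a subunit of complex II, had 0.22 ± 0.11, and Mrpl34, a protein of the mitochondrial ribosome that is not on the list, 0.42 ± 0.13. Mrpl34 was named by the rule for non-overlapping genes given below, so its value adds nothing to the list. Of 11 cholesterol synthesis genes 9 were higher (8 without CNT array 4) with a median of 0.04 (0.12 without it), with Idi1, an isomerase of the pathway, at 0.37 ± 0.19. The 3 measured reference genes had a median of 0.05 (0.08 without CNT array 4).

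Slc6a3 and Th, genes of dopamine neurons, were spread widely in CNT. Slc6a3, the dopamine transporter, was at 5.94, 6.83 and 5.45 in NaCl-III, against 4.62, 3.48, 6.84, 4.19 and 4.69 in CNT, and Th, the rate-limiting enzyme of catecholamine synthesis, at 7.55, 7.69 and 7.38 in NaCl-III, against 6.72, 6.50, 7.78, 6.76 and 6.86 in CNT. For both genes all NaCl-III arrays lay above all CNT arrays but CNT array 3, which was the highest of the 8. The differences were 1.31 ± 0.89 for Slc6a3 and 0.61 ± 0.60 for Th (SE). Heat and cold shock genes were lower in 10 of 12 cases, beside 48.0% of all genes, with a median of -0.17 (-0.14 without CNT array 4). Their median scores overlapped, at -0.22 to 0.02 in NaCl-III and -0.22 to 0.17 in CNT. Among them Dnajb1 had -0.34 ± 0.19 and Bag3 -0.29 ± 0.17. Bag3 was the only 1 of the 12 whose groups did not overlap, beside 2.64% of all genes. Of 14 antigen presentation genes 11 were lower, beside 48.0% of all genes, with a median of -0.19, or -0.14 without CNT array 4. The median of the 13 GABA genes was -0.04 with array 4 and 0.02 without it, that of the 13 glutamate genes 0.05 and 0.02, and that of the 11 amino acid transporters 0.01 and 0.07. The 21 genes of the monoamine system were divided, 13 higher and 8 lower, with a median of 0.04 (0.08 without CNT array 4).

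**Figure D4:**
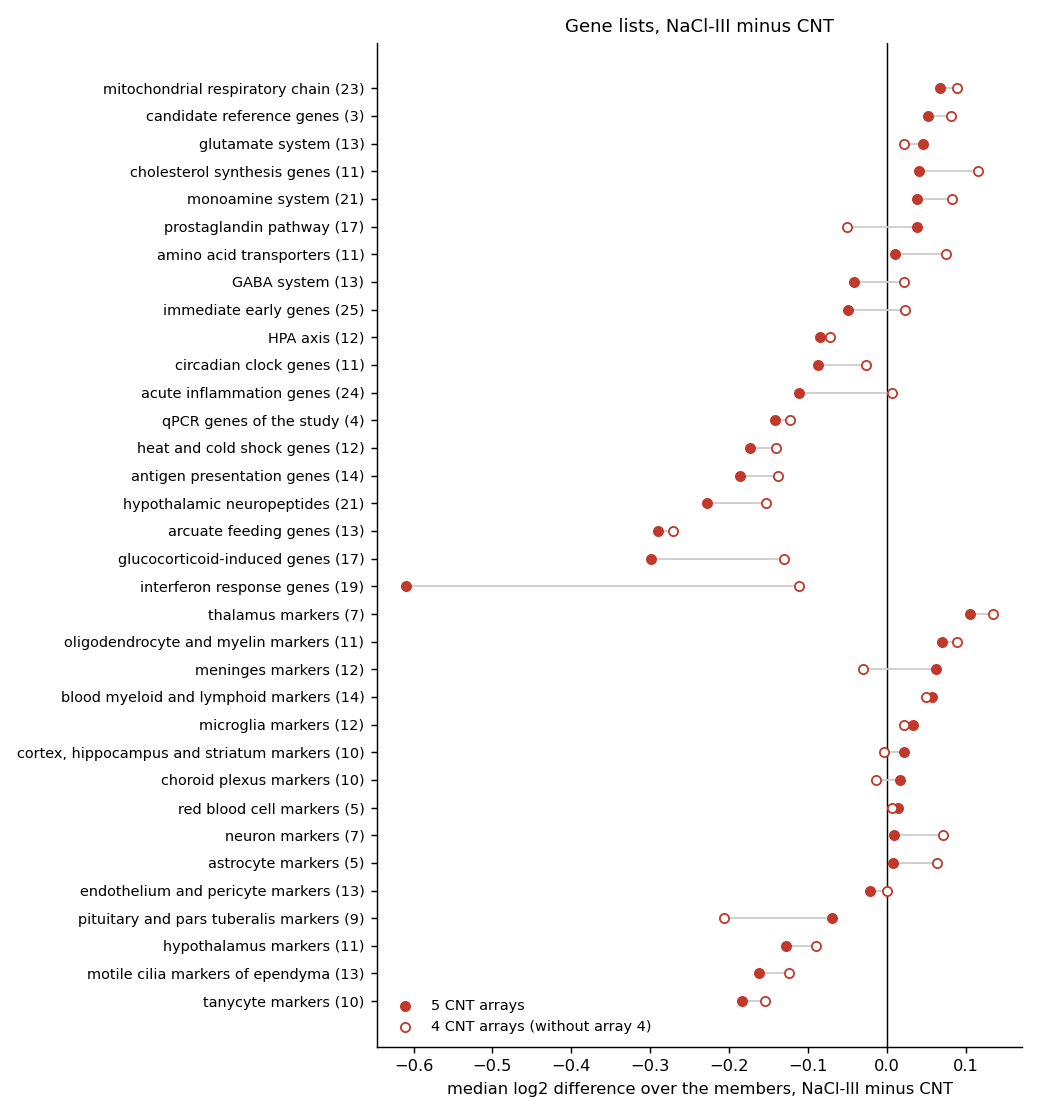
Median log2 difference (NaCl-III minus CNT) over the measured members of each gene list, with the number of members in brackets, for 5 CNT arrays (filled) and without array 4 (open). The interferon response list moves most when array 4 is left out (-0.61 and -0.11), and most marker lists lie near 0.

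Markers of other tissues near the dissected piece varied within both groups. The median scores of 12 meninges markers lay between -0.39 and 0.86 in NaCl-III and between -0.26 and 0.90 in CNT, and those of 11 oligodendrocyte and myelin markers between -0.28 and 0.29 in NaCl-III and between -0.42 and 0.34 in CNT. The 10 choroid plexus markers had a median difference of 0.02, the 7 thalamus markers of 0.11, the 10 markers of cortex, hippocampus and striatum of 0.02 and the 5 red blood cell markers of 0.01. The 7 neuron markers and the 5 astrocyte markers each had a median of 0.01. Without CNT array 4 the medians were -0.01 for choroid plexus, 0.13 for thalamus, -0.004 for cortex, hippocampus and striatum, 0.01 for red blood cells, 0.07 for neurons and 0.06 for astrocytes. Their part in the results above was not tested.

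The 30 genes with the smallest unadjusted p among those whose groups did not overlap were taken as 15 in each direction, from genes with a group mean above the median level in at least 1 group. Over all genes 384 of 14557 (2.64%) did not overlap, 210 higher (1.44%) and 174 lower (1.20%) in NaCl-III. The 15 genes higher in NaCl-III had differences between 0.30 and 0.91 and the 15 lower between -2.80 and -0.36, and since not overlapping was part of how they were chosen, their separation is no result. For 7 of the 30, 4 higher and 3 lower, only the higher group was above that level, so these had to differ, and they are not described further. Klhl26, an adaptor for protein ubiquitination, was at 6.18, 5.97 and 6.20 in NaCl-III, against 5.36, 5.64, 5.84, 5.88 and 5.53 in CNT (0.47 ± 0.13, SE). Lmo1, a transcription cofactor of neurons, was at 5.98, 5.72 and 6.00 in NaCl-III, against 5.30, 4.94, 5.33, 5.65 and 5.18 in CNT (0.62 ± 0.18). These are gaps of the order of the spread within CNT. Stub1, a ubiquitin ligase that works with heat shock chaperones, had 0.44 ± 0.16, Csnk1g3, a casein kinase, 0.50 ± 0.16, and Mlycd, the enzyme that breaks down malonyl-CoA, 0.47 ± 0.18.

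Ifitm7, of a family of interferon-induced membrane proteins, led the lower genes. It was at 4.84, 5.84 and 5.12 in NaCl-III, against 6.39, 6.21, 6.34, 6.09 and 6.07 in CNT, a difference of -0.95 ± 0.27 (SE). Unlike the interferon genes above, it was not raised on CNT array 4. Its means in the other groups without LPS, from 5.67 in SHAM-III to 5.87 in VAGX-III, lay between NaCl-III (5.27) and CNT (6.22). Prodh, the proline dehydrogenase of mitochondria, had -0.49 ± 0.17, Cpeb1, a regulator of mRNA translation at synapses, -0.41 ± 0.15, and Nup205, a nuclear pore protein, -0.47 ± 0.17. Bdp1, a subunit of the factor that RNA polymerase III needs, had -0.38 ± 0.13, and Nagk, a kinase of amino sugars, -0.36 ± 0.14. Against SHAM-III, 13 of the 15 higher and 14 of the 15 lower genes kept their sign, while Stub1 had -0.11 and Bdp1 0.01. That comparison shares the NaCl-III arrays, by which these genes were chosen, so the kept signs are no separate result.

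**Figure D5:**
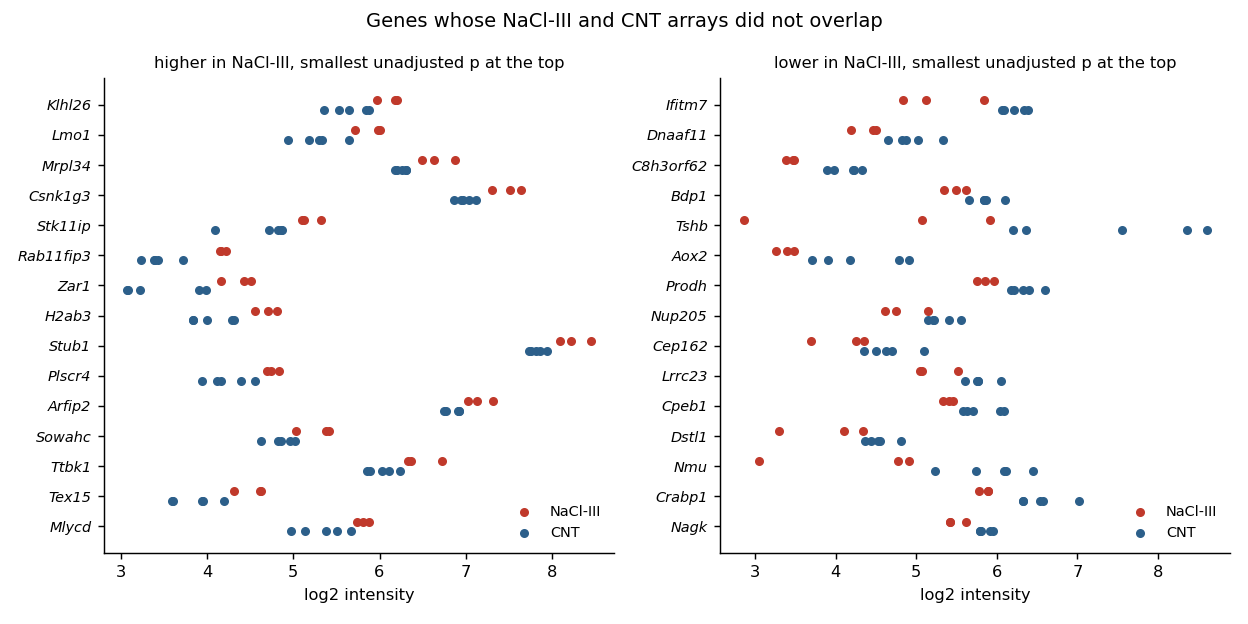
Level (log2 intensity) of the 15 genes higher and the 15 lower in NaCl-III with the smallest unadjusted p among genes whose groups did not overlap, 1 point per array, with NaCl-III drawn above CNT for each gene. Most gaps between the groups are narrow, and Tshb, at 2.85 to 5.92 in NaCl-III and 6.20 to 8.61 in CNT, has the widest spread of points.

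Both comparisons that touch the schedule of injections also called 0 clusters (0%). NaCl-III against SHAM-III, which share the i.p. saline and differ in the 10 days of s.c. saline and in the operation, had 1790 clusters (4.88%) at an unadjusted p under 0.05 by limma and 1820 by the methods' analysis of variance. The mean of CEL-III, SC560-III and INDOM-III against CNT, with the same injections plus a drug, had 1483 (4.04%) and 1470. This last comparison shares the CNT arrays with the main one, so the values are only given side by side. The differences of the drug groups from CNT were -0.49 for Tshb, -0.53 for Cga, -0.66 for Nmu, 0.12 for Fos, 0.19 for Fkbp5, 0.26 for Crh and 0.19 for Avp. Those of NaCl-III were -2.80, -1.78, -1.69, -0.20, -0.30, -0.19 and -0.56 in the same order. Without CNT array 4 the drug groups differed from CNT by -0.19 for Tshb and by -0.615 for Nmu. Of the study's qPCR genes, 4 were measured as single genes here: Vim, an intermediate filament, had -0.18 ± 0.23 (SE) in NaCl-III, Gabrg1, a GABA-A receptor subunit, -0.24 ± 0.13, Actn2, an actinin, -0.11 ± 0.24, and Oxt, the hormone oxytocin, -0.02 ± 0.54.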

How the data were processed

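Medial hypothalamus RNA of single rats was hybridised to arrays of the Rat Gene 2.1 ST design. The deposited values are linear intensities of 36685 transcript clusters (1.75 to 7820), made by the authors with RMA, which corrects background, normalises quantiles and summarises probes by median polish. The labels name Expression Console and the methods Partek Genomics Suite for this step. Scanner values were not used here, so the background correction could not be varied. Log2 was taken of the intensities. Groups and array numbers came from the labels. limma 3.58.1 (R 4.3.3) was fitted to 13 group means over 56 arrays, with Benjamini-Hochberg adjustment over all clusters and a threshold of 0.05, and was tested on simulated data. Nothing in the labels places rats in separate cohorts, so p-values measure only the spread between these samples, and the number of arrays limits the precision.

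Gene names came from the platform annotation: 14824 clusters had 1 symbol, 829 several and 21032 none, and 14557 genes were kept, the brightest cluster standing for each of the 234 genes with several. 1415 clusters shared their values with another. Members and lists were chosen with earlier results of these data known. Named genes were up to 15 in each direction with the smallest unadjusted p among non-overlapping genes with a group mean above the median level in at least 1 group, up to 3 of each list with the smallest p, fixed stress genes, and the 10 genes farthest above the other arrays on CNT array 4. Th, Trh, Il1b, Dct and Ucp2 were named after their values were seen. Alternatives covered the test, the samples fitted, dim clusters, scaling, array set, array weights and each left-out array; those that leave out CNT array 4 together with another choice were added after seeing the data. Promoters were RefSeq sequences, drawn with Python 3.11.15. Some genes, such as Sgk1, were not analysed here.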

Additional observations from a re-analysis of the deposited data

Results flagged for a closer look

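Among the 65 named genes and 34 lists, 13 had 1 CNT array whose gap to its nearest neighbour took up most of the range of the 5 CNT arrays, and chance gives such a gap in about 1 of 20 groups. NaCl-III, with 3 arrays, was not examined in this way.

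In 9 of the 13 the array was CNT array 4, as the highest. All of these genes but Lcn2 had been picked because they lay farthest above the other arrays on this array, and the lists were chosen with earlier results known, so the chance rate does not apply to them. The gap was 0.938 of the range for Cxcl11, 0.929 for Cxcl10, 0.842 for Rsad2, 0.839 for Lcn2, 0.824 for Cxcl9, 0.784 for Ifit3 and 0.724 for Gbp5. For the median level of the acute inflammation list it was 0.780, and for that of the interferon response list 0.728.

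CNT array 41 was the lowest for Per2, with a gap of 0.727 of the range, and for Dnajb1, with 0.799. CNT array 3 was the highest for Th, with 0.717, and CNT array 1 the lowest for Stk11ip, with 0.807.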

How the results depend on the processing

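No paired analysis was possible because the groups share no replicate numbers. NaCl-III against CNT gave 0 calls under all alternatives but 3. Higher calls numbered 1 without the second-run arrays and between 0 and 2 when single arrays were left out (1 without NaCl-III array 20, 2 without array 48). These calls were clusters without a gene name, with group means below the median level, and the cause was not tested. Of 1427 gene values 38 changed sign, none of them past the threshold. Over left-out single arrays the differences ran from -0.445 to 0.02 for Fos, from -0.306 to 0.134 for Oxt, from -0.032 to 0.082 for Nr3c1, from -1.423 to 0.085 for Cxcl11, from -1.194 to 0.051 for Cxcl10, from -1.036 to 0.158 for Cxcl9, from -1.139 to 0.025 for Gbp5, from -0.652 to 0.364 for Ccl2 and from -0.275 to 0.141 for Il1b. For the last 6 the highest value is the one without CNT array 4, and it was the same with only the 30 arrays without LPS or only the groups compared. With the array set as a block and without CNT array 4 the values were 0.014 for Cxcl11, 0.009 for Cxcl10, 0.134 for Cxcl9, 0.003 for Gbp5, 0.28 for Ccl2 and 0.105 for Il1b. Nr3c1 was -0.009 in arrays 1 to 40 and -0.023 without second-run arrays, and Oxt was 0.047 with the block and 0.087 without second-run arrays.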
